A study of Gossypium hirsutum with 6 samples.

Results

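The carotenoid pathway genes of upland cotton (Gossypium hirsutum) were compared in leaf RNA of FPF1 transgenic lines and of the wild type. The members were the genes whose deposited KEGG annotation names the carotenoid biosynthesis pathway, and they numbered 213 of the 72761 genes listed. They were placed by enzyme tag and protein description. Of the 213, 102 formed families of the pathway's own enzymes, 4 of them by the tag alone because their description names no function. The other 111 carried a pathway tag but were described as something else or as proteins of no known function, and they are given apart.

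The study concerns shade avoidance, the elongation of plants that sense neighbours, and the role in it of FPF1, named after a flowering promoting factor. Leaf RNA selected for poly-A tails was sequenced in 6 libraries, 3 titled FPF1 and labelled as transgenic lines and 3 titled W10 and labelled as wild type. The labels give no promoter, line number, plant age or light condition, nor whether the replicates were separate plants, and every p below compares the groups with nothing more than the scatter among these libraries, part of which may be technical. Levels are in FPKM, fragments per transcript length and per library total, a scale on which genes of different length can be compared.

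Carotenoids are plastid pigments built from geranylgeranyl diphosphate. Phytoene synthase joins 2 of these units, desaturases and isomerases turn phytoene into red lycopene, and cyclases close the ends of lycopene in 1 of 2 branches, one leading to lutein and the other to beta-carotene and zeaxanthin. In leaves the carotenoids sit in the light-harvesting complexes, where zeaxanthin epoxidase and violaxanthin de-epoxidase convert zeaxanthin and violaxanthin into each other and so set how much absorbed light is lost as heat. Cleavage of the epoxidised carotenoids starts the synthesis of abscisic acid, the hormone of drought and dormancy, and other cleavage enzymes lead to strigolactones and to volatile products.

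The FPF1-like gene GH_D02G0524 measured 133, 199 and 195 FPKM across transgenic replicates 1 to 3 and 0, 0 and 0.467 FPKM across those of the wild type, the order used for all values below. Relative depth, read from the smallest values, was 0.993 to 1.14 in the transgenic and 1.19 to 1.28 in the wild-type libraries, so the groups differed in depth. Of 45 tested leaf mesophyll markers (small RuBisCO subunits and chlorophyll a-b binding proteins), 22 fell and 2 rose, and their summed level was 2241 to 2875 FPKM in the transgenic and 3837 to 5320 FPKM in the wild-type libraries, with 2 of the 52 listed at 0 throughout. Of 14 tested markers of xylem secondary walls, 10 rose and none fell, but 12 of the 14 were tested only because of their level in the transgenic group and so had to differ, with sums of 44.7 to 88.5 against 7.97 to 10.1 FPKM and 3 of 26 at 0. None of the 7 tested markers of dividing cells was called by limma, with sums of 133 to 152 against 164 to 176 FPKM and 1 of 13 at 0. At an unadjusted p under 0.05 stood 3 of the 7, as did 24% of all tested genes. Floral markers had 4 rises and 4 falls among 38 tested (sums of 356 to 431 against 338 to 356 FPKM, 50 of 117 at 0), and seed markers had 1 rise and 1 fall among 38 (8 of 67 at 0). Seed marker sums overlapped, at 23890 to 33630 against 23990 to 31130 FPKM. Most of each sum was 1 gene, GH_A10G1801, at 17850 to 24480 FPKM. The median log2 fold change of the 38 was -0.79, and 13 were lower and 2 higher in every transgenic library. Those shares were 34.2% and 5.26%, against 9.51% and 20.6% of all tested genes. However, 18 of the 38 were tested only because of their wild-type level. Calls among all tested genes were 3.92% rises and 1.78% falls. The part of these markers and of depth in the results that follow was not tested, and in whole leaves fewer cells of a type cannot be told apart from less RNA per cell.

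The pathway as a whole did not move one way. Among the pathway's own enzymes, both tested lycopene epsilon cyclase genes, at the branch to lutein, rose. Phytoene synthase, carotenoid cleavage dioxygenase 4, 9-cis-epoxycarotenoid dioxygenase and abscisic acid 8'-hydroxylase each had 1 rise, and 2 of 3 zeaxanthin epoxidase genes fell. Of the 213 members, 29 were at 0 in every library and 124 reached a group mean of 1 FPKM or more, in either group, and were tested, 3 of them only through the transgenic and 4 only through the wild-type libraries. By limma on log2(FPKM + 1), with p adjusted over all 43837 genes tested, 8 members rose and 3 fell. Among all tested genes 5.7% were called, 3.92% as rises and 1.78% as falls. The shares over all 124 tested members were 6.45% and 2.42%, which lie near this background. Among the 59 tested genes of the pathway's own enzymes, 6 rose (10.2%) and 2 fell (3.39%). Whether these shares differ from those of all tested genes was not tested. Members whose groups did not overlap numbered 24 higher and 19 lower in the transgenic libraries, or 19.4% and 15.3%, against 20.6% and 9.51% of all tested genes. At an unadjusted p under 0.05 stood 40 members, 24 higher and 16 lower, while 24% of all tested genes did, 16.6% higher and 7.42% lower. The median log2 fold change was 0.022 over the members and 0.080 over all tested genes, and both turned negative after median-of-ratios scaling (-0.078 and -0.0043), while after upper quartile scaling only that of the members did (-0.030). That median-of-ratios scaling gave 7 rises and 5 falls, so that rises made up 58.3% of the members' calls against 72.7% as deposited. In the authors' deposited table, 13 of the 213 members were higher and 6 lower at a q under 0.05. Of all 72761 genes listed, 2220 were higher (3.05%) and 2010 lower (2.76%) at that q.

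**Figure D1:**
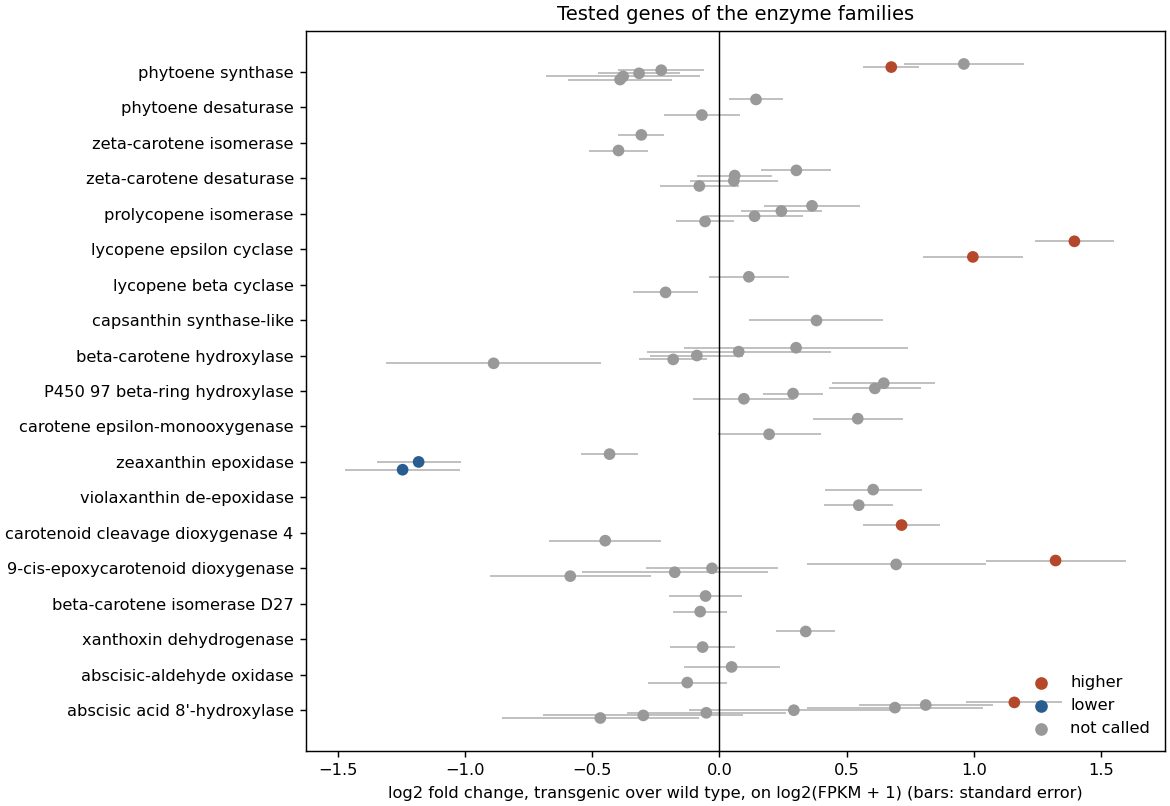
Log2 fold changes (transgenic over wild type, on log2(FPKM + 1)) of the tested genes of the pathway's own enzyme families, in pathway order from top to bottom, with standard errors as bars and 1 point per gene. Both tested lycopene epsilon cyclase genes lie at or near 1 or above, and 2 zeaxanthin epoxidase genes lie below -1, while most other points are within 0.7 of 0 and were not called.

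Lycopene synthesis, the shared trunk of the pathway, had 18 tested genes of 20. Of these 1 rose (5.56%, against 3.92% of all tested genes) and none fell, with a median log2 fold change of 0.00019. Phytoene synthase, the first and often rate-setting step, was expressed from several gene pairs that did not behave alike. GH_D09G0092 stood at 15.2, 12.8 and 15.4 against 8.81, 8.55 and 8.64 FPKM. Every transgenic library was above every wild-type library, and the gene rose (log2 fold change 0.68, standard error 0.109, adjusted p = 0.0191). Its counterpart in the A subgenome, GH_A09G0088, stood at 16.5, 11.3 and 22.7 against 7.13, 9.26 and 7.32 FPKM, also without overlap, but was not called (0.96, adjusted p = 0.0607). The most abundant phytoene synthase gene, GH_A07G0815, pointed the other way, at 35.1, 34.04 and 28.1 against 50.7, 35.2 and 36.9 FPKM. Its groups did not overlap, though the gap was narrow, and it was not called (log2 fold change -0.32, adjusted p = 0.283). The summed level of the family was 90.6 ± 4.55 against 90.4 ± 14.4 FPKM, with overlap (mean ± SD, n = 3 each, as for all later values with ±). The call of GH_D09G0092 was lost without transgenic 1, 2 or 3 or wild type 1 (adjusted p 0.0504 to 0.0841).

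The enzymes between phytoene and lycopene showed no calls by limma among 12 tested genes. Both genes of 15-cis-zeta-carotene isomerase, which straightens 1 of the bent double bonds, were lower in every transgenic library. GH_D02G0719 stood at 18.0, 17.1 and 19.3 against 22.3, 27.7 and 22.8 FPKM and GH_A02G0705 at 16.1, 16.8 and 17.2 against 20.9, 21.5 and 20.2 FPKM, with adjusted p of 0.0942 and 0.0951. After median-of-ratios scaling GH_A02G0705 was called lower (adjusted p = 0.0498). Both had an unadjusted p under 0.05, as had 24% of all tested genes, and none of the 10 genes of the next 3 enzymes had. Phytoene desaturase, which acts on phytoene, stood at 18.1 ± 1.00 against 16.3 ± 1.55 FPKM in its most abundant gene, GH_A10G1426. The most abundant zeta-carotene desaturase gene, GH_D11G2894, was at 23.5 ± 4.57 against 22.4 ± 3.33 FPKM, and the most abundant prolycopene isomerase gene, GH_D01G1424, at 12.8 ± 1.25 against 13.3 ± 0.922 FPKM. In these 3 enzymes the groups overlapped in all 10 genes.

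The clearest rise was in lycopene epsilon cyclase, which closes the epsilon ring and commits lycopene to the branch that ends in lutein. GH_A05G0311 stood at 7.68, 7.03 and 7.90 against 1.73, 2.51 and 2.56 FPKM. The lowest transgenic value was well above the highest wild-type value, and the gene rose by a log2 fold change of 1.40 (standard error 0.156, adjusted p = 0.00684). Its D subgenome counterpart GH_D05G0316 stood at 4.61, 6.47 and 6.93 against 2.74, 1.88 and 2.89 FPKM. It too rose without overlap (log2 fold change 1.00, standard error 0.196, adjusted p = 0.0338). The other 2 epsilon cyclase genes, on A07 and D07, stayed under the filter. GH_A05G0311 was the only member called in all 13 alternative settings, whereas GH_D05G0316 was lost without transgenic 2 or 3 or wild type 1 or 2 (adjusted p 0.0543 to 0.140) and without a filter on low values (0.0516).

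Lycopene beta cyclase, the enzyme of the competing ring closure, showed no such rise. GH_A13G0026 stood at 5.15, 5.57 and 4.07 against 3.99, 5.11 and 4.29 FPKM, and the groups overlapped. GH_D13G0022 stood at 5.09, 5.34 and 4.73 against 5.69, 6.70 and 5.67 FPKM, slightly lower in every transgenic library but not called (log2 fold change -0.21, adjusted p = 0.352). The ratio of summed epsilon to summed beta cyclase FPKM, which no scaling of a library can change, was 1.20, 1.26 and 1.80 against 0.490, 0.419 and 0.580. It was above 1 in each transgenic library and below 1 in each wild-type library. The beta sum held GH_A13G0026 and GH_D13G0022 only. It left out the capsanthin/capsorubin synthase gene GH_A09G1145, given below, whose mean was above that of either beta cyclase in both groups. That the ratio stood above 1 in the transgenic libraries depended on leaving this gene out. This ratio was chosen after the values were seen and is given without a test. A gene described as capsanthin/capsorubin synthase, a relative of the cyclases named for red pepper pigments, stood at 9.21 ± 1.68 against 7.11 ± 2.81 FPKM (GH_A09G1145) and was not called.

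**Figure D2:**
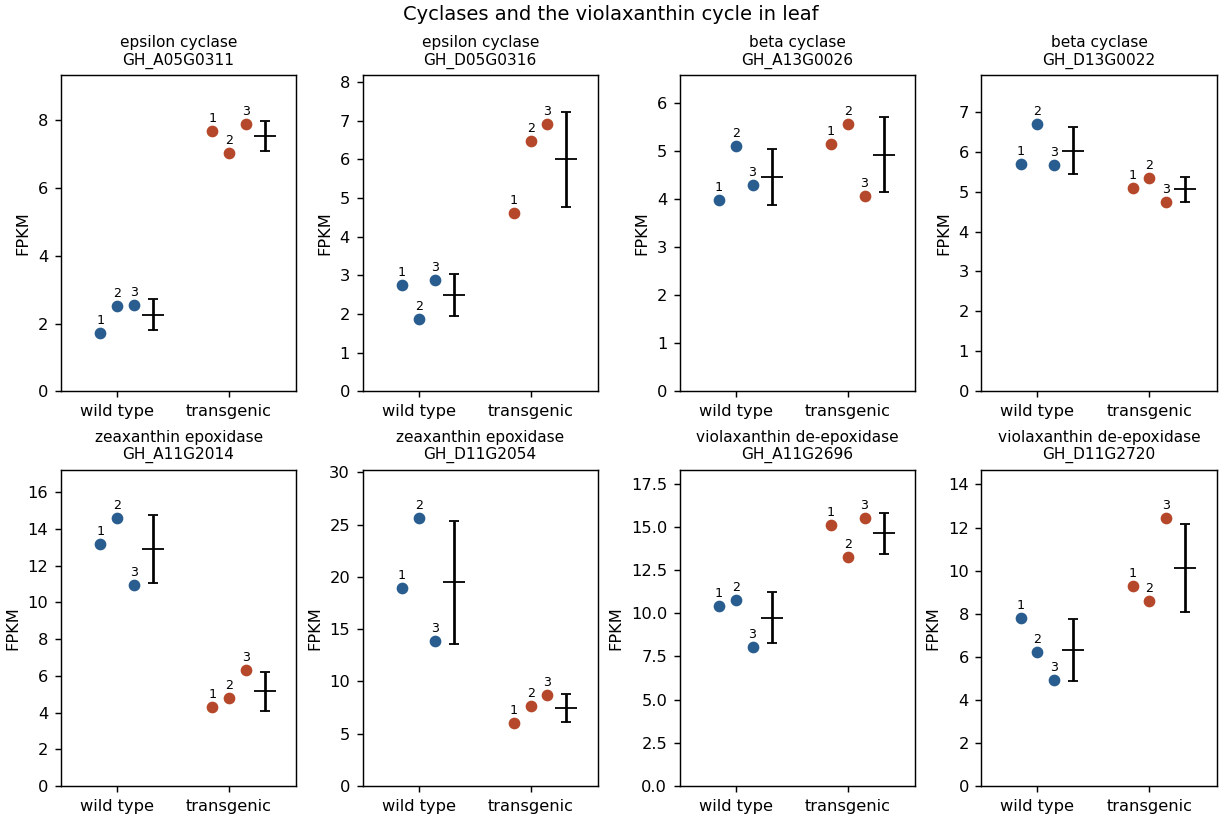
FPKM in each library (numbered points) for epsilon and beta cyclases in the upper row and for the violaxanthin cycle enzymes in the lower row, with mean ± SD as bars. The groups are apart in both epsilon cyclases, both zeaxanthin epoxidases and both de-epoxidases shown, more narrowly in GH_D13G0022, and overlap in the beta cyclase GH_A13G0026.

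The hydroxylases that turn carotenes into xanthophylls had no called gene among 11 tested by limma, and 4 at an unadjusted p under 0.05, all higher, against 16.6% of all tested genes higher at that p. These 4 belonged to the cytochrome P450 enzymes that act on the lutein branch and to carotene epsilon-monooxygenase. GH_D13G1774, described as LUTEIN DEFICIENT 5, the P450 that hydroxylates the beta ring, stood at 9.35, 8.96 and 15.6 against 7.06, 6.47 and 6.44 FPKM. Its counterpart GH_A13G1819 stood at 7.45, 6.92 and 10.2 against 5.35, 4.01 and 5.61 FPKM. These 2 genes were chosen after their values were seen. Neither pair of groups overlapped, transgenic 3 was highest in both, and neither gene was called (adjusted p = 0.110 and 0.0949). The most abundant of these P450 genes, GH_A07G2050 (P450 97B2), was at 14.7 ± 1.55 against 11.9 ± 0.967 FPKM (adjusted p = 0.189). GH_D11G3716, carotene epsilon-monooxygenase, which hydroxylates the epsilon ring to complete lutein, stood at 3.75, 3.87 and 5.60 against 2.76, 2.38 and 2.88 FPKM and was not called (log2 fold change 0.54, adjusted p = 0.119).

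A pair of non-haem beta-carotene hydroxylases of the zeaxanthin branch held the most abundant genes of the pathway's own enzymes. This pair, on chromosome 12, was set apart by the spread within the wild type. GH_D12G2781 stood at 66.5, 58.7 and 48.5 against 64.2, 85.9 and 29.1 FPKM. GH_A12G2753, placed here by its tag, stood at 54.5, 59.8 and 43.0 against 46.5, 79.2 and 19.8 FPKM. In both, wild type 2 was the highest and wild type 3 the lowest of the 6 libraries, and the transgenic values lay between them. Neither was called (adjusted p = 0.920 and 0.719), and the log2 fold change of GH_D12G2781 ran from -0.37 without wild type 3 to 0.40 without wild type 2.

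Zeaxanthin epoxidase, which turns zeaxanthin into violaxanthin, fell. GH_A11G2014 stood at 4.32, 4.80 and 6.34 against 13.2, 14.6 and 10.9 FPKM. GH_D11G2054, its D subgenome counterpart, stood at 6.04, 7.69 and 8.67 against 18.9, 25.6 and 13.8 FPKM. In both genes every transgenic value was below every wild-type value, and the means were at 0.399 and 0.383 of the wild type. Their log2 fold changes were -1.18 (standard error 0.165, adjusted p = 0.0125) and -1.25 (standard error 0.225, adjusted p = 0.0270). Another gene with this description, GH_D04G1845, the most abundant of the 3, stood at 13.1, 12.1 and 10.4 against 16.7, 16.3 and 15.8 FPKM. It was also lower in every transgenic library but was not called (-0.43, adjusted p = 0.0691). The call of GH_A11G2014 was lost without transgenic 2 (adjusted p = 0.0703) or wild type 1 (0.0663), and that of GH_D11G2054 without transgenic 1, 2 or 3 or wild type 1 (0.0648 to 0.108).

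Violaxanthin de-epoxidase, which works in the opposite direction when light is in excess, stood higher in the transgenic libraries but was not called. GH_A11G2696 was at 15.1, 13.3 and 15.5 against 10.4, 10.8 and 8.05 FPKM (log2 fold change 0.55, standard error 0.135, adjusted p = 0.0610). GH_D11G2720 was at 9.27, 8.61 and 12.4 against 7.78, 6.24 and 4.93 FPKM (0.60, adjusted p = 0.111). In both the groups did not overlap, and wild type 3 was the lowest library. The ratio of summed de-epoxidase to summed epoxidase FPKM was 1.04, 0.891 and 1.10 against 0.372, 0.301 and 0.320. The RNA levels of the opposed enzymes were thus close to each other in the transgenic leaves, while the epoxidase level was the higher one in each wild-type library. Like the cyclase ratio it was chosen after the values were seen. A list of the epoxidases, the de-epoxidases and photosystem II 22 kDa protein, with which zeaxanthin acts in heat loss, had 12 tested genes. Of these 1 rose (8.33%) and 2 fell (16.7%), against 3.92% and 1.78% of all tested genes. The falls were the zeaxanthin epoxidase genes above. The rise was in a gene of photosystem II 22 kDa protein, GH_A01G2050 (13.3, 14.7 and 20.96 against 8.05, 6.51 and 7.04 FPKM, adjusted p = 0.0217). The most abundant gene of that protein, GH_D01G2166, was at 12.8 ± 4.88 against 16.3 ± 3.08 FPKM and was not called.

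**Figure D3:**
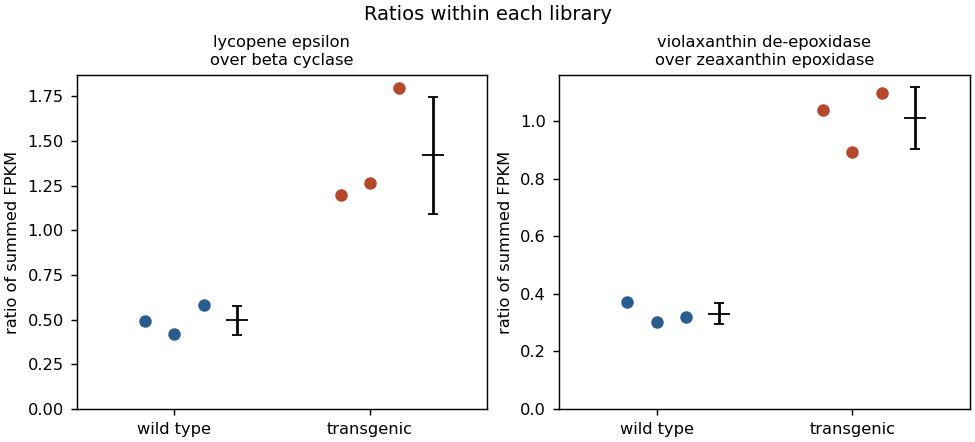
Ratios of summed FPKM within each library, epsilon over beta cyclase on the left and violaxanthin de-epoxidase over zeaxanthin epoxidase on the right, with mean ± SD as bars. The transgenic means are 1.42 and 1.01 and the wild-type means 0.496 and 0.331, with no overlap between the groups in either panel.

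Carotenoid cleavage dioxygenase 4 and the dioxygenases that start abscisic acid synthesis had 2 rises among the 7 tested of 18 genes. The share of rises among all tested genes was 3.92%. GH_D12G2239, probable carotenoid cleavage dioxygenase 4, an enzyme that breaks carotenoids down to volatile products, stood at 23.6, 21.5 and 24.1 against 15.7, 15.0 and 10.7 FPKM. The transgenic libraries lay close together above the wild type, and the gene rose (log2 fold change 0.72, standard error 0.153, adjusted p = 0.0423). The call held in 5 of 13 alternatives and was lost without transgenic 1, 2 or 3 or wild type 1 (adjusted p 0.0911 to 0.130), after median-of-ratios scaling (0.0594), without a filter on low values (0.0637) and without trend and robust estimation (0.0582). Its A subgenome counterpart GH_A12G2220 was far less abundant, at 1.49, 1.28 and 2.07 against 3.54, 1.97 and 2.29 FPKM, and was not called (-0.45, adjusted p = 0.265). A further gene of this kind, GH_A09G1185, was under the filter, at 0.190, 0.195 and 0.145 against 0.385, 1.09 and 1.01 FPKM.

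The 9-cis-epoxycarotenoid dioxygenases (NCED) make the first committed step to abscisic acid. Of 14 such genes 5 were tested, all of them described as NCED3, and 4 were above 2 FPKM. GH_A01G0365 stood at 7.59, 11.3 and 7.49 against 3.81, 3.63 and 1.59 FPKM. The groups did not overlap and the gene rose (log2 fold change 1.32, standard error 0.275, adjusted p = 0.0397). Leaving out transgenic 1, 2 or 3 or wild type 1 removed the call (adjusted p 0.0723 to 0.151) and without a filter on low values (0.0619). GH_D01G0347, its counterpart, stood at 11.1, 9.29 and 10.04 against 6.78, 9.96 and 2.79 FPKM, where wild type 2 reached the transgenic values, and was not called (0.69, adjusted p = 0.278). The pair on chromosome 13 had the opposite sign. GH_A13G1789, the most abundant NCED gene, stood at 11.2, 6.56 and 12.4 against 14.9, 10.03 and 22.8 FPKM (-0.59, adjusted p = 0.306), and GH_D13G1744 at 10.4, 6.55 and 8.97 against 9.04, 5.56 and 17.8 FPKM. Wild type 3 was the highest library for this pair and the lowest for the pair on chromosome 1. The summed level of the NCED genes was 40.6 ± 3.71 against 39.6 ± 7.11 FPKM.

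The later steps to abscisic acid showed no calls in limma. Xanthoxin dehydrogenase, the short-chain dehydrogenase that follows the cleavage, was at 23.2 ± 2.17 against 24.4 ± 3.19 FPKM in GH_A13G0142. Its other gene, GH_D13G0143, stood at 21.7, 22.2 and 25.1 against 15.9, 18.5 and 19.6 FPKM, without overlap (log2 fold change 0.34, adjusted p = 0.134). It was the only one of these genes with an unadjusted p under 0.05. Abscisic-aldehyde oxidase, the last step, was at 5.12 ± 1.27 against 4.87 ± 0.740 FPKM in its most abundant gene, GH_D05G0775.

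Abscisic acid 8'-hydroxylases, the P450 enzymes that inactivate the hormone, had 1 rise among 7 tested of 21 genes, against 3.92% of all tested genes. GH_A13G0397, described as 8'-hydroxylase 4, stood at 5.05, 6.24 and 7.40 against 2.26, 2.74 and 1.71 FPKM. The lowest transgenic value lay well above the highest wild-type value (log2 fold change 1.16, standard error 0.189, adjusted p = 0.0196). The call was lost without transgenic 2 or 3 or wild type 1 (adjusted p 0.0720 to 0.0950). GH_D08G1767, placed here by its tag, stood at 3.31, 4.27 and 3.04 against 1.85, 2.38 and 0.766 FPKM without overlap and was not called (0.81, adjusted p = 0.120). The most abundant gene, GH_A08G1746, overlapped widely, at 7.56, 9.50 and 3.57 against 4.95, 8.86 and 2.81 FPKM. Of the untested genes, GH_D06G0061 was listed at 0 in each transgenic library and at 0.0353 to 0.0728 FPKM in the wild type. Thus 1 gene for making abscisic acid and 1 for breaking it down both rose.

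**Figure D4:**
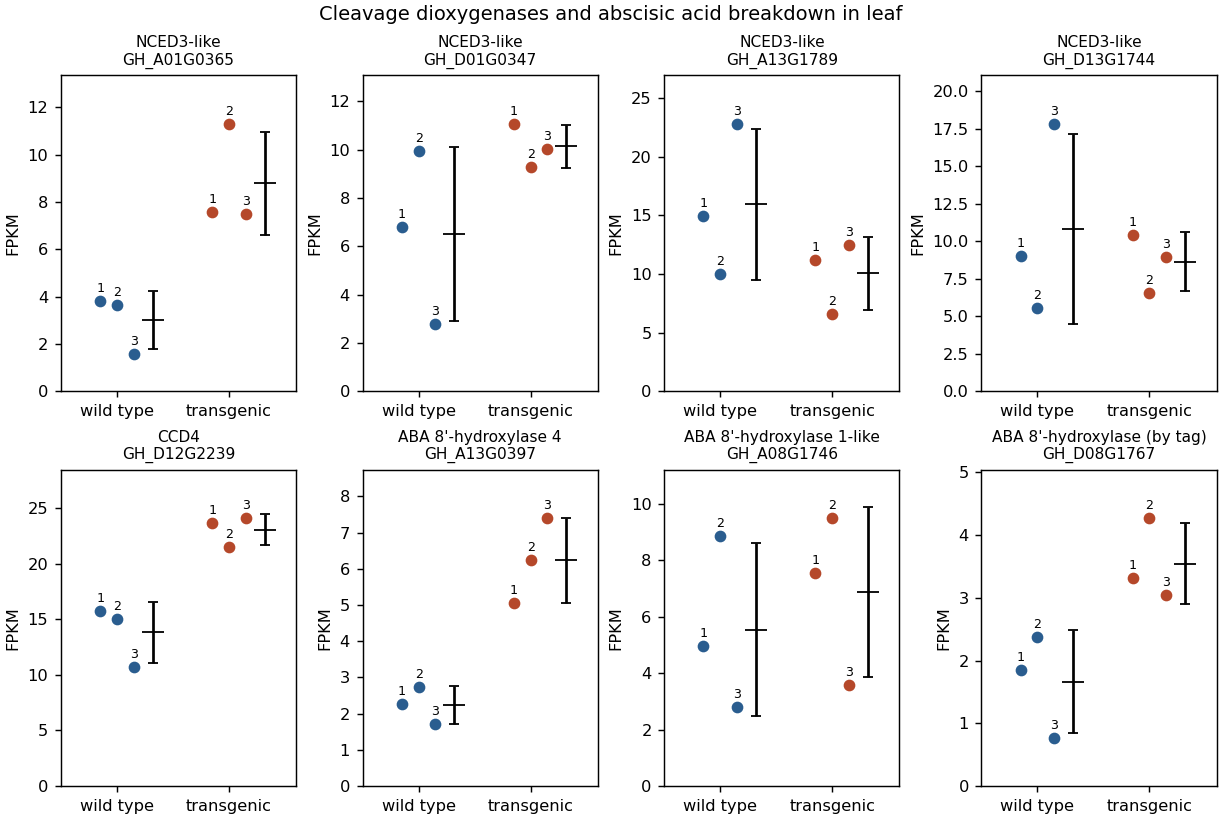
FPKM in each library (numbered points) for 4 NCED3-like genes in the upper row and for carotenoid cleavage dioxygenase 4 (CCD4) and 3 abscisic acid (ABA) 8'-hydroxylase genes in the lower row, with mean ± SD as bars. GH_A01G0365, GH_D12G2239 and GH_A13G0397 rose, and wild type 3 is the lowest library for the pair on chromosome 1 and the highest for the pair on chromosome 13.

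Of the strigolactone route only the first step was tested. Beta-carotene isomerase D27, which makes the substrate of the route, stood at 19.1 ± 1.48 against 20.1 ± 3.69 FPKM in GH_D11G1162 and at 14.8 ± 1.497 against 15.6 ± 0.277 FPKM in GH_A11G1132, with overlap in both. Both genes of carotenoid cleavage dioxygenase 7 and all 4 of dioxygenase 8, the enzymes that continue the route, were listed at 0 in every library.

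Of the 111 members outside the enzyme families, 65 were tested, 2 rose and 1 fell. The shares were 3.08% and 1.54%, near the 3.92% and 1.78% of all tested genes. GH_A08G0918, a chloroplast CBS domain protein like CBSX1, stood at 17.2, 19.9 and 20.6 against 8.97, 9.29 and 11.3 FPKM (log2 fold change 0.90, adjusted p = 0.0125). It carries the tag of an abscisic acid glucosyltransferase, which its description does not name. The related and far more abundant GH_A02G1813 was at 169 ± 4.57 against 197 ± 7.73 FPKM and was not called (-0.22, adjusted p = 0.204). GH_A08G0778, like short-chain dehydrogenase reductase 3c, stood at 9.54, 7.44 and 8.71 against 4.35, 4.10 and 4.90 FPKM (0.81, adjusted p = 0.0217). GH_D07G1784, a protein of no known function tagged as zeta-carotene isomerase, fell from 22.1 ± 0.398 to 16.2 ± 1.04 FPKM (-0.42, adjusted p = 0.0480). In these 3 called genes the groups did not overlap. The fall held in 4 of 13 alternatives and was lost with any 1 library left out (adjusted p 0.0704 to 0.157), without a filter on low values (0.0632) and without trend and robust estimation (0.0742). With a library left out, calls were also lost for the CBS protein without transgenic 2 or 3 or wild type 1 (0.0519 to 0.0728) and for the dehydrogenase without any one of these 3 or transgenic 1 (0.0549 to 0.0942).

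The remaining members of that kind were not called. The most abundant of those tagged as xanthoxin dehydrogenase, GH_D01G2294, stood at 53.5 ± 9.52 against 51.0 ± 3.38 FPKM, and GH_A04G1504, tagged as zeaxanthin epoxidase but described as like a urate hydroxylase, at 32.2 ± 8.04 against 29.6 ± 2.87 FPKM. GH_D12G2257, like a scopoletin glucosyltransferase, was at 21.4 ± 2.88 against 21.9 ± 2.26 FPKM, and GH_D03G0164, tagged as aldehyde oxidase, at 13.5 ± 1.72 against 11.9 ± 2.50 FPKM. Of the 4 genes tagged as prolycopene isomerase but described otherwise, 3 were higher in every transgenic library, the most abundant, GH_D03G0143, at 13.9 ± 1.07 against 9.95 ± 1.05 FPKM (adjusted p = 0.0727). Of 16 tested genes tagged as zeta-carotene isomerase but described otherwise, 6 were lower and 1 was higher in every transgenic library. For both tags, the shares among all tested genes to set beside these counts were 20.6% higher and 9.51% lower. Some low genes did not overlap between the groups and had means apart by more than a factor of 2. They included GH_D11G1142 (1.26 ± 0.201 against 0.457 ± 0.158 FPKM) and GH_A09G1197 (1.04 ± 0.234 against 0.338 ± 0.171 FPKM), both described as other enzymes. Both were tested only because of their level in the transgenic group and so had to differ. A further low gene without overlap, under the filter in both groups, was GH_D09G1145, at 0.213 ± 0.0602 against 0.449 ± 0.0139 FPKM. GH_D09G1144, the neighbour of that gene by number, was at 0.412 ± 0.366 against 0.652 ± 0.733 FPKM.

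Cotton carries an A and a D subgenome, and reads of such near-identical copies may be shared between them. Within the enzyme families, 46 pairs were formed from genes of 1 family on the same chromosome number that lay nearest by gene number, and both genes were tested in 26. The fold changes of the partners had the same sign in 18 of the 26 pairs, with a Pearson correlation of 0.682 across pairs, which share libraries and possibly reads and are not independent. Both partners were called in the lycopene epsilon cyclase and the zeaxanthin epoxidase pairs and only 1 in 3 further pairs, of phytoene synthase, NCED3 and cleavage dioxygenase 4. The last of these had opposite signs and unequal levels, with the A copy at 0.114 of the D copy over all 6 libraries. The beta-carotene hydroxylase pair GH_A09G1976 and GH_D09G1926 was as unequal the other way, with the A copy at 8.79 times the D copy, and its partners had the same sign.

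**Figure D5:**
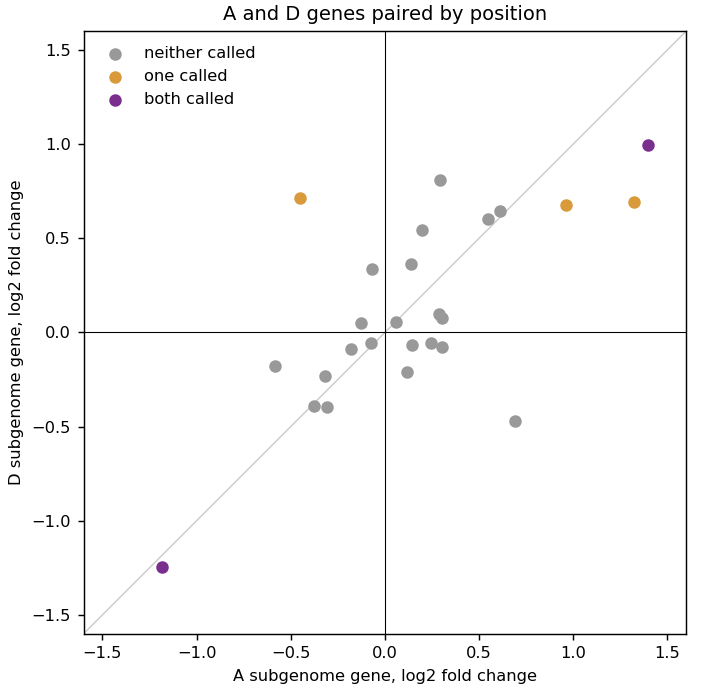
Log2 fold change of the D gene against that of the A gene for the 26 pairs with both genes tested, with the line of equality in grey. The 2 pairs with both partners called lie at the upper right (lycopene epsilon cyclase) and the lower left (zeaxanthin epoxidase), and 1 pair with 1 called gene lies at the upper left (cleavage dioxygenase 4).

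Neighbouring plastid isoprenoid routes were described from lists searched in the protein descriptions. The plastid route that supplies the precursors had no call among 33 tested genes by limma, with a median log2 fold change of -0.025. At an unadjusted p under 0.05 stood 6 of the 33 (3 higher, 3 lower). The share among all tested genes was 24% (16.6% higher, 7.42% lower). Its most abundant gene, the isopentenyl diphosphate isomerase GH_D08G2580, was at 170.0 ± 44.5 against 145 ± 20.2 FPKM. Proteins of plastoglobules, the lipid droplets of plastids, with ORANGE proteins had 1 rise and 4 falls among 23 tested genes (median -0.024). The shares were 4.35% and 17.4%, against 3.92% and 1.78% of all tested genes. The plastid lipid-associated proteins GH_D05G1777, at 28.8, 27.1 and 21.1 against 56.2, 63.5 and 48.7 FPKM, and GH_A05G1746, at 22.6, 21.3 and 17.1 against 46.4, 51.3 and 37.2 FPKM, fell furthest (adjusted p = 0.0120 and 0.0126). GH_D04G1880 of the same family rose from 8.98 ± 1.13 to 15.2 ± 0.922 FPKM (adjusted p = 0.0225), and GH_D06G1190 and GH_A09G2167 fell by 0.50 and 0.48 on the log2 scale (adjusted p = 0.0390 and 0.0336).

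The tocopherol branch, which shares the geranylgeranyl precursor, had 1 rise and 3 falls among 21 tested genes (median -0.027). The shares were 4.76% and 14.3%, against 3.92% and 1.78% of all tested genes. GH_A13G1847, tocopherol O-methyltransferase, which completes vitamin E, stood at 16.7, 18.5 and 17.7 against 2.88, 2.97 and 4.41 FPKM and rose without overlap (log2 fold change 2.09, adjusted p = 0.00170). GH_D03G0582, another gene with that description, fell from 12.8 ± 4.21 to 4.05 ± 1.02 FPKM (-1.43, adjusted p = 0.0217). Geranylgeranyl diphosphate reductase, which supplies the side chain of chlorophyll and tocopherol, fell in GH_D03G1071 (-0.61, adjusted p = 0.0431) and GH_A03G0806 (-0.52, adjusted p = 0.0353).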

How the data were processed

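The authors deposited 1 table with an FPKM value per gene and library, per the file headers, with 1e-04 in place of zero, taken here as 0. It also gives the authors' fold change, the ratio of mean FPKM, which is not used here beyond its sign, and a q-value column. The test behind it, the aligner, genome build, annotation, strand setting and treatment of shared reads are not given in the sources used here. Counts are unknown, so no count test was run, and counting depth was estimated only in relative terms, from values under 0.15 FPKM.

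FPKM were used as deposited. Genes whose mean reached 1 FPKM in either group were tested by limma 3.58.1 (R 4.3.3) on log2(FPKM + 1) with trend and robust estimation, two-sided, without covariates, and called at a Benjamini-Hochberg adjusted p under 0.05 over all genes. Fold changes are on that scale, which understates those of low genes. The fit was tested on simulated data.

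Members, families and lists were chosen with earlier results of these data known, the family definitions were completed once the descriptions had been read, and the subgenome pairs were defined after seeing the data. By rule, named genes were all called members, the most abundant of each family, the 5 largest fold changes, and members at least 2-fold apart without overlap. Other members of these families, mostly subgenome partners of such genes, were named after their values were seen. In the other lists, the most abundant gene, the rise and the fall of smallest adjusted p and all genes of counts up to 5, except in the marker lists, which were given as counts and sums. No member was matched in the RefSeq gene table, and no sequence is printed. Alternatives were other scalings, filters, pseudocounts and variance settings, the replicate block and leaving out each library.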

Additional observations from a re-analysis of the deposited data

How the results depend on the processing

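Of the 11 called members, only GH_A05G0311 was called in all 13 alternatives. With each library left out in turn, members called higher numbered 1 to 9 and lower 0 to 4, and all genes called higher 182 to 1561 and lower 107 to 1060. The smallest counts of all genes came without transgenic 2, and no member was called lower without transgenic 2 or wild type 1. Without a filter on low values 5 members rose and 2 fell, with 1155 and 524 genes in all. After median-of-ratios scaling 7 members rose and 5 fell, after upper quartile scaling 8 and 4, and without trend and robust estimation 8 and 2, where 639 genes fell in all. Over all tested genes, deviations of same-numbered libraries from their group means had correlations of 0.0136, 0.0261 and 0.0740. Those of differently numbered libraries ran from -0.084 to 0.0582. Whether the numbers pair the libraries cannot be told from these values, since single genes may still vary together. With the replicate block 6 members rose and 2 fell, with 1029 and 503 genes in all, and the calls of GH_D05G0316 (adjusted p = 0.0623), GH_D12G2239 (0.0752) and GH_D07G1784 (0.112) were lost. Of the uncalled members named above, GH_D11G1142 gained a call without trend and robust estimation (adjusted p = 0.0489) and GH_A02G0705 after median-of-ratios scaling (0.0498). GH_D11G1142 was tested only because of its level in the transgenic group and so had to differ.

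Some uncalled genes near 0 changed sign. After median-of-ratios scaling, GH_D12G2781 stood at -0.018, GH_D11G2894 at -0.035, GH_D01G2294 at -0.038 and GH_D05G0775 at -0.032, and after upper quartile scaling the last 2 at -0.00061 and -0.00089. With a library left out, log2 fold changes ran from -0.37 to 0.40 for GH_D12G2781, -0.046 to 0.22 for GH_D11G2894, -0.078 to 0.16 for GH_D01G2294, -0.11 to 0.18 for GH_D05G0775, -0.12 to 0.063 for GH_D12G2257, -0.096 to 0.19 for GH_A04G1504, -0.12 to 0.013 for GH_D01G1424, -0.14 to 0.032 for GH_A13G0142, -0.17 to 0.078 for GH_D11G1162 and -0.044 to 0.64 for GH_A08G1746. Cause was not tested for any of these. Without counts, the precision of low values is unknown.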
